A study of Rattus norvegicus with 6 samples.

Results

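The nuclear genes of oxidative phosphorylation were examined by enzyme complex in RNA sequencing libraries of rat outer hair cells, the electromotile sensory cells that amplify vibration in the cochlea. Members were the rows of the deposited gene table whose symbol names a subunit of complex I (Nduf genes), complex II (Sdha to Sdhd), complex III (Uqcr genes), complex IV (Cox4 to Cox8 genes) or complex V (Atp5 genes). The rule used symbols only and took 89 of 35790 rows, with 39 in complex I, 4 in complex II, 9 in complex III, 20 in complex IV and 17 in complex V. There were 3 libraries of basal-turn outer hair cells, set against 3 libraries of apical-turn outer hair cells. All 6 came from Sprague-Dawley rats of wild type genotype, aged 9 days after birth, and no group carried a transgene or a treatment other than the collagenase used to free the cells. Each library was made from 30 cells picked by eye under a microscope. The labels do not state if the 3 libraries of a turn are from different animals, so p-values here measure the spread between libraries alone, which may be technical. The series asks how outer hair cells of the high-frequency base and the low-frequency apex differ in expression.

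Oxidative phosphorylation takes place in the inner mitochondrial membrane. Complexes I and II pass electrons from NADH and succinate to ubiquinone, complex III passes them to cytochrome c, and complex IV passes them to oxygen. Complexes I, III and IV pump protons as they do so, and complex V, the ATP synthase, uses the proton gradient to make ATP. Most subunits are encoded in the nucleus, while the catalytic centre of complex IV, cytochrome b of complex III and several membrane subunits of complexes I and V are encoded in mitochondrial DNA. Outer hair cells have a high energy demand, and those of the basal turn are known as the more vulnerable to noise and ototoxic drugs.

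The libraries held 16511675 to 20301499 gene counts in the basal group and 18617323 to 23140976 in the apical group. Values per library are given below in the order of replicates 1, 2 and 3. Marker genes placed other RNA beside that of outer hair cells. The 14 detected outer hair cell markers were all above 0 somewhere and took 7.00%, 2.32% and 0.884% of counts in basal libraries, against 3.96%, 4.19% and 2.22% in apical libraries. Of these 14, 10 had lower and 4 had higher fitted levels in the basal group (median log2 fold change, basal over apical, -1.45). All 12 Schwann cell markers had higher fitted levels in the basal group, with 0.331%, 3.58% and 2.34% of counts in basal libraries and 0.031%, 0.048% and 0.030% in apical libraries. Markers of macrophages, red blood cells and fibrocytes or osteoblasts also had higher fitted levels in the basal group. Macrophage markers took 0.123%, 0.022% and 0.195% of counts in basal libraries, against 0.0038% to 0.0060% in apical libraries. Red blood cell markers took 0.246%, 1.14% and 0.784% in basal libraries, against 0.018% to 0.152% in apical libraries. Fibrocyte and osteoblast markers were uneven among basal libraries, with 0.108%, 0.840% and 2.73%, against 0.253% to 0.396% in apical libraries. Supporting cell markers took 0.087% to 0.215% of counts in basal libraries and 0.448% to 1.45% in apical libraries. Because the libraries are bulk samples, fewer cells of a type and less RNA per cell cannot be told apart. How much these other cells contributed to the member values was not tested.

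Of the 89 rows, 78 had enough counts for the test of basal against apical libraries (edgeR quasi-likelihood test with Benjamini-Hochberg adjustment over 13507 genes), and 0 passed an adjusted p of 0.05. The same test called 0.0% of all genes. At an unadjusted p under 0.05 there was 1 member, Uqcrc2, which was lower in the basal group. Of all genes tested, 6.0% reached that level, 2.12% higher and 3.88% lower in the basal group. With DESeq2, 1 member was called, Cox6b2, beside 4.55% of genes, and 0 members passed in the authors' deposited table, beside 0.534% of genes. The members' differences below are therefore descriptions of 3 libraries against 3. They are given with standard errors of the log2 fold change, basal over apical.

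The promoters of 6 members are shown first, as examples. Ndufs1, Sdhb, Uqcrc2 and Atp5d are the 4 tested members whose 3 basal libraries all lay below the 3 apical ones. Of all genes tested, 10.4% were separated that way. Sdha carries the flavin of complex II, and Cox8a had the highest level per length of all members. The sequences are those of RefSeq on GRCr8, 250 bases before to 50 bases after the annotated gene start, written 5′ to 3′ along the gene. Capitals mark matches on either strand to a 10-base form of the nuclear respiratory factor 1 motif with GCGC at both ends, CCGGAAG (ETS family sites, the family of the GA-binding protein) or AAGATGGC (YY1 sites), and no match of one motif overlaps another in these 6.
Ndufs1, chr9:72073556-72073855, minus strand: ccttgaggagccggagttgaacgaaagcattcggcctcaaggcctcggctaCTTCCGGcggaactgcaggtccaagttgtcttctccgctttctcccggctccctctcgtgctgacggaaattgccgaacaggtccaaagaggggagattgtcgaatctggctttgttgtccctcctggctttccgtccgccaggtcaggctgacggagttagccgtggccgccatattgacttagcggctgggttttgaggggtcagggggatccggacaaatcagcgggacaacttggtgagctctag
Sdhb, chr5:158547684-158547983, plus strand: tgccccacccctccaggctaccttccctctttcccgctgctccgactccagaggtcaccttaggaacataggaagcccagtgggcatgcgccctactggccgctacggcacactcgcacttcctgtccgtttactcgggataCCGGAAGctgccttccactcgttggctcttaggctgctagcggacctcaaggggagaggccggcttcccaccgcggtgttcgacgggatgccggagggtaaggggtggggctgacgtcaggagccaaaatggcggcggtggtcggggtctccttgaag
Uqcrc2, chr1:184598990-184599289, plus strand: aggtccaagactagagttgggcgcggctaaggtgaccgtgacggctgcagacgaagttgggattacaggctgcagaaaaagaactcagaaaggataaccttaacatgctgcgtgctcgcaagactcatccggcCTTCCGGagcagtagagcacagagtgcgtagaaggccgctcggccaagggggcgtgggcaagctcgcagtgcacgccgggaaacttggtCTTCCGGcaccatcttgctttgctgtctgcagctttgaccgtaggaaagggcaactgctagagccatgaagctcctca
Atp5d, chr7:10214301-10214600, minus strand: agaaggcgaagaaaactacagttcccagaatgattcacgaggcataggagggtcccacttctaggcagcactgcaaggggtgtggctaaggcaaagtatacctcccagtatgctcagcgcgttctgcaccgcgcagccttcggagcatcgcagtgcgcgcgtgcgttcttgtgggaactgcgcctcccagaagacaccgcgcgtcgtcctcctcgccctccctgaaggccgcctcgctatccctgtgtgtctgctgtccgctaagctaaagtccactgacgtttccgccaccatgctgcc
Sdha, chr1:30764303-30764602, plus strand: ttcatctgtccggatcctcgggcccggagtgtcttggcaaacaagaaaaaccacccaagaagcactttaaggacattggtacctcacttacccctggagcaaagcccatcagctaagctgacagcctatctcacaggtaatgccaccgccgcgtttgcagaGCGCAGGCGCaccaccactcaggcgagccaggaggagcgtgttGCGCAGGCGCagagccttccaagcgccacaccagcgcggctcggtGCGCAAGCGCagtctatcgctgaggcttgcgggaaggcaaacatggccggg
Cox8a, chr1:213833574-213833873, minus strand: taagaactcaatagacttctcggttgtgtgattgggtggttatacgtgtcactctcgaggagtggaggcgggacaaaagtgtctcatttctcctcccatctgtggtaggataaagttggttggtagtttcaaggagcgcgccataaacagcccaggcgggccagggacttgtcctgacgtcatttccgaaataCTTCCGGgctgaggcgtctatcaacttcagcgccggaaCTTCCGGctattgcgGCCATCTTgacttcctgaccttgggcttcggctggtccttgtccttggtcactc

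The Sdha promoter held 3 matches to the nuclear respiratory factor 1 motif. Ndufs1 and Sdhb held 1 ETS match each, at -199 and -108 from the gene start, while Uqcrc2 held 2. Cox8a held 2 ETS matches and 1 YY1 match, and Atp5d held none of the 3 motifs. Among the 71 members with a promoter entry, 12 (16.9%) held the nuclear respiratory factor 1 motif, against 4.25% of all 33469 promoters of the same length. The ETS motif was in 18 (25.4%), against 8.75% of all promoters, and the YY1 motif was in 15 (21.1%), against 3.17%. Members' promoters were also richer in G and C, with a median of 56.0% against 51.7% over all promoters. By complex, the nuclear respiratory factor 1 motif was in 5 of 32 promoters of complex I, 1 of 4 of complex II, 1 of 6 of complex III, 0 of 14 of complex IV and 5 of 15 of complex V. The promoters of complex IV included the tissue isoforms Cox6a2, Cox6b2, Cox7a1, Cox7b2, Cox8b and Cox8c, which were rare in these libraries. Cox4i2, Cox6a1 and Cox6c had no promoter entry. Promoters of members with negative and with positive fold changes held these motifs, and a match is a string of letters, not a binding site.

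As a whole the members were highly expressed. Their summed share of counts was 4.71%, 3.50% and 3.65% in basal libraries, against 3.45%, 4.25% and 3.83% in apical libraries, and the groups overlap. The means were 3.95% ± 0.66 in basal and 3.84% ± 0.40 in apical libraries (SD, n = 3 each), a difference smaller than either SD. Of the 78 tested members, 67 were among the 1000 tested genes of highest mean CPM (read counts put on a common scale by the trimmed mean of M-values). The median of their mean CPM was 349, against 20.4 for all genes tested. The members lie on 19 chromosomes, so they are no local cluster.

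Complex by complex, the summed shares also overlapped between the turns. Complex V took 1.38%, 1.15% and 1.26% of counts in basal libraries, against 1.23%, 1.41% and 1.36% in apical libraries. Complex I took 1.31%, 1.03% and 1.05% in basal libraries, against 0.954%, 1.20% and 1.07% in apical libraries. Complex IV took 1.43%, 0.830% and 0.790% in basal libraries, against 0.763%, 1.04% and 0.805% in apical libraries. In each of these 3 complexes the spread within a turn was as wide as the step between turns. Complex III, which has fewer rows, took 0.459%, 0.356% and 0.373% in basal libraries, against 0.342%, 0.431% and 0.405% in apical libraries. Complex II took 0.123%, 0.131% and 0.167% in basal libraries, against 0.171%, 0.156% and 0.189% in apical libraries. Complex II was the one complex in which basal replicate 1 was the lowest library, and in complexes I, III and IV it was the highest.

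**Figure D1:**
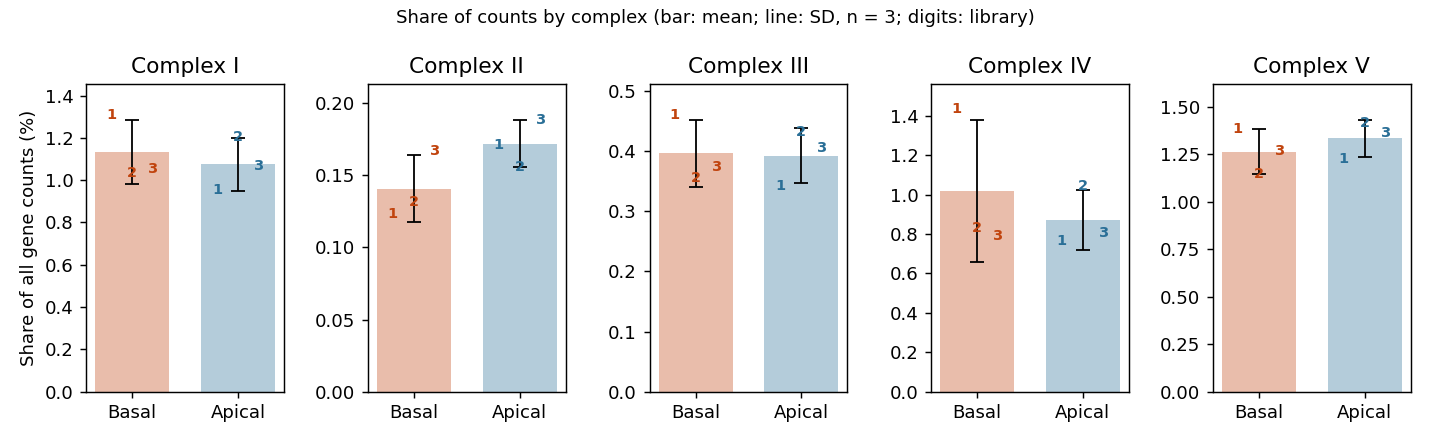
Share of all gene counts (%) taken by each complex; bars are means of 3 libraries, black lines the SD, and digits the replicate number at its own value. Basal replicate 1 stands at 1.43% for complex IV, above the other 5 libraries, and every pair of groups overlaps.

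Per length, the complexes differed in level more than the turns did. The median FPKM (fragments per kilobase scaled to library total, as deposited) of tested complex IV members was 1083 ± 356 in basal and 984 ± 151 in apical libraries (SD over libraries, n = 3 each). That of complex V was 857 ± 113 in basal and 827 ± 77 in apical libraries. Complex III had 494 ± 49 in basal and 462 ± 121 in apical libraries, and complex I had 459 ± 113 in basal and 407 ± 37 in apical libraries. Complex II had the lowest mean of these medians, 326 ± 66 in basal and 378 ± 56 in apical libraries. It was not lowest in each library, since complex I was lower in basal replicate 3 and apical replicates 1 and 3. The ranges of 1 SD overlapped between complexes IV and V, between III and I, and between I and II, in both groups.

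**Figure D2:**
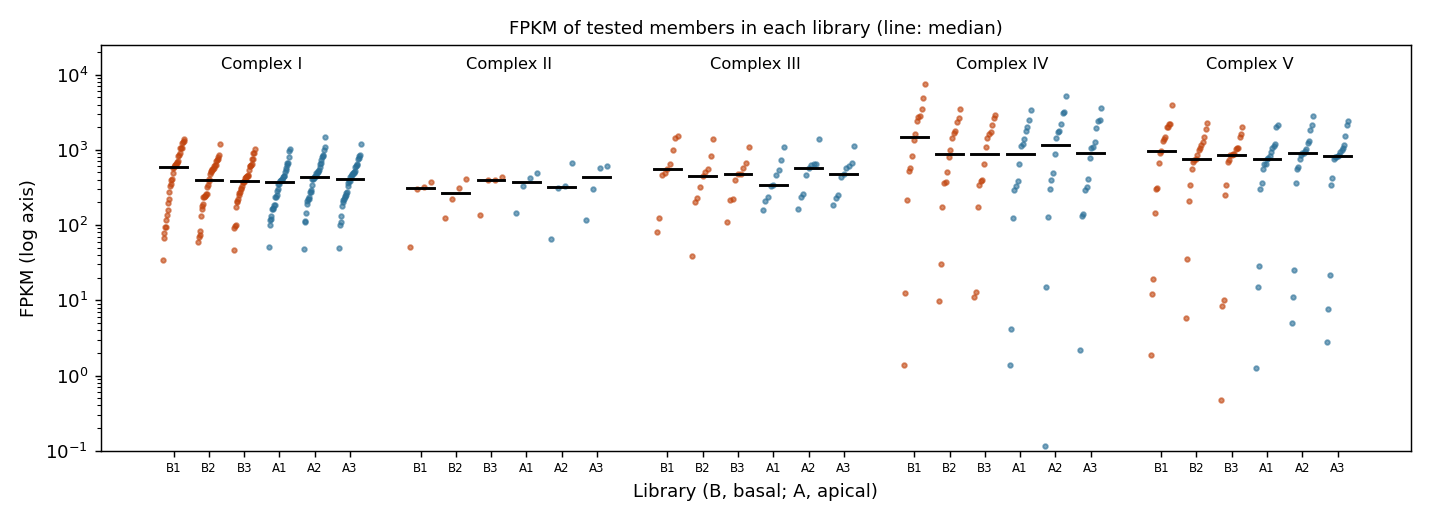
FPKM (log axis) of each tested member in each library, by complex, with points in rising order, basal libraries B1 to B3 left of apical libraries A1 to A3, and black lines at the median. Medians of complexes IV and V stand above those of complexes I, II and III in all 6 libraries; values of 0 are left out.

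The fold changes of the tested members leaned to the basal side. There were 55 members with a positive and 23 with a negative log2 fold change, so 70.5% were positive, against 49.0% of all genes tested. The median was 0.20, against -0.02 for all genes. By complex, 25 of 34 members of complex I had a positive value (median 0.19), 1 of 4 in complex II (median -0.16), 6 of 9 in complex III (median 0.22), 12 of 14 in complex IV (median 0.37) and 11 of 17 in complex V (median 0.19). The lean rested on 1 library. Without basal replicate 1, 31 of 79 tested members had a positive value, the median was -0.03, and the medians of complexes I, III, IV and V were -0.02, -0.09, 0.04 and -0.15.

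The 3 libraries of each turn did not overlap for 10 members. In 6 of them the basal libraries were higher (5.4% of all genes tested were separated that way), and in 4 they were lower (10.4% of all genes). The higher ones were Ndufa6, Ndufa8, Ndufb2, Cox6b2, Cox7a2l and Cox7b, and the lower ones were Ndufs1, Sdhb, Uqcrc2 and Atp5d. Of the 6, 5 are accessory or small subunits and Cox6b2 is a tissue isoform, and the 4 are core or catalytic-head subunits. The roles were grouped with the values known, and this division was not tested. Over all genes tested, 15.8% were separated in either direction.

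**Figure D3:**
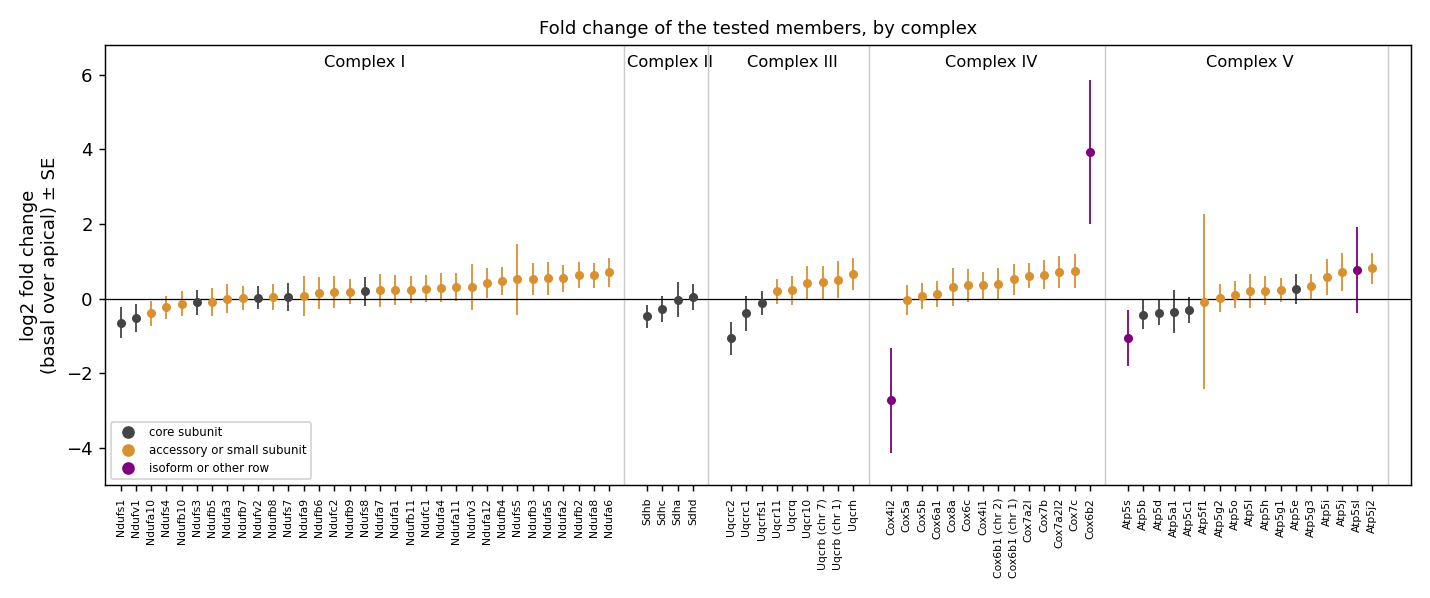
Log2 fold change (basal over apical) of tested members with standard errors, ordered within each complex; grey points are core subunits, orange points accessory or small subunits, and purple points tissue isoforms or other rows. Most core subunits sit at the lower end of complexes I, III and V.

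In complex I the medians differed by role, a comparison that was not tested. Its 7 nuclear core subunits, which carry the flavin, the iron-sulphur clusters and part of the quinone site, had a median log2 fold change of -0.10, and 3 of 7 were positive. Its 27 tested rows of accessory subunits, which surround the core, had a median of 0.24, and 22 were positive. They include the Ndufs5 row, which has no introns. The roles overlapped, with core values from -0.65 to 0.19 and accessory values from -0.40 to 0.70. Ndufs1, the largest iron-sulphur subunit of the electron input module, had 95.6, 177 and 236 CPM in basal libraries, against 283, 272 and 242 CPM in apical libraries. All 3 basal values were lower, and the log2 fold change was -0.65 (SE 0.41). Ndufv1, which binds NADH and flavin, had 171, 204 and 339 CPM in basal libraries, against 298, 354 and 365 CPM in apical libraries (log2 fold change -0.51, SE 0.38). Here basal replicate 3 fell inside the apical range.

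Further core subunits of complex I were nearer to 0. Ndufs7, which holds the last iron-sulphur cluster, had 176, 233 and 257 CPM in basal libraries, against 159, 283 and 205 CPM in apical libraries (log2 fold change 0.04, SE 0.37). The groups interleaved. Ndufs3, Ndufs8 and Ndufv2 lay between -0.10 and 0.19.

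Among the accessory subunits, Ndufa8, a twin cysteine motif protein of the intermembrane space, had 328, 295 and 223 CPM in basal libraries, against 172, 205 and 173 CPM in apical libraries. All basal values were higher, and the log2 fold change of 0.62 (SE 0.33) had the smallest p of the members of complex I with a positive value (edgeR, 0.10 unadjusted). Ndufa6, a LYR motif subunit, had 494, 312 and 224 CPM in basal libraries, against 199, 215 and 218 CPM in apical libraries (log2 fold change 0.70, SE 0.39). Ndufb2, of the membrane arm, had 426, 271 and 283 CPM in basal libraries, against 182, 226 and 229 CPM in apical libraries (log2 fold change 0.62, SE 0.35). For these 3 genes the basal values stood above the apical range in each library, with basal replicate 1 the highest of the 6.

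The level of complex I members per length ran over a wide range. Ndufb8, of the membrane arm, was the highest, with 1389, 1192 and 1015 FPKM in basal libraries and 1037, 1472 and 1208 FPKM in apical libraries. Its log2 fold change was 0.03 (SE 0.35). The lowest tested row was Ndufs5, with 94.5, 58.9 and 45.9 FPKM in basal libraries and 50.9, 48.7 and 49.8 FPKM in apical libraries. That row is a block of sequence without introns in the deposited coordinates and was not matched to RefSeq on its chromosome. Ndufa4, first described in complex I and since assigned to complex IV, had 950, 470 and 588 CPM in basal libraries, against 514, 650 and 475 CPM in apical libraries (log2 fold change 0.29, SE 0.38), and its sign turned without basal replicate 1.

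Complex II has 4 subunits, all nuclear, and it also serves in the citric acid cycle. Sdhb, the iron-sulphur subunit, had 418, 392 and 419 CPM in basal libraries, against 485, 645 and 579 CPM in apical libraries. The basal values were close together and all lower, with a log2 fold change of -0.48 (SE 0.31). Sdha, the flavoprotein, had 133, 272 and 310 CPM in basal libraries, against 330, 145 and 259 CPM in apical libraries (log2 fold change -0.04, SE 0.47). Each turn thus had 1 low library for Sdha. The membrane anchors Sdhc and Sdhd, which bind ubiquinone and haem, had log2 fold changes of -0.28 (SE 0.35) and 0.03 (SE 0.35), with overlapping groups.

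In complex III the signs divided large from small subunits in the fit of all 6 libraries, a comparison that was not tested. The 3 large members, Uqcrc1, Uqcrc2 and Uqcrfs1, had negative log2 fold changes (median -0.39), and all 6 rows of small subunits had positive ones (median 0.43). The division leaned on single libraries. Without basal replicate 1 the median of the complex was -0.09, and without basal replicate 2 the sign of Uqcrfs1 turned. Uqcrc2, a core protein on the matrix side, had 166, 69.2 and 199 CPM in basal libraries, against 287, 296 and 326 CPM in apical libraries. Every basal value was below the apical range, with a mean of 145 ± 67 in basal and 303 ± 21 in apical libraries (SD, n = 3 each). With a log2 fold change of -1.07 (SE 0.45), it had the smallest p among all tested members (edgeR, 0.045 unadjusted and 0.800 adjusted over all genes). Uqcrc1, its partner core protein, had 229, 495 and 771 CPM in basal libraries, against 538, 750 and 674 CPM in apical libraries (log2 fold change -0.39, SE 0.47). Uqcrfs1, the Rieske iron-sulphur protein, had 673, 476 and 621 CPM in basal libraries, against 579, 699 and 631 CPM in apical libraries (log2 fold change -0.11, SE 0.32).

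Of the small subunits of complex III, Uqcrh, the hinge protein, had 936, 442 and 363 CPM in basal libraries, against 399, 351 and 357 CPM in apical libraries (log2 fold change 0.65, SE 0.43). Basal replicate 1 was far above the rest and basal replicate 3 lay among the apical values. Uqcr11 had the highest level per length in the complex, with 1429, 1390 and 1105 FPKM in basal libraries and 1102, 1381 and 1137 FPKM in apical libraries (log2 fold change 0.19, SE 0.33). Uqcrb has rows on chromosomes 1 and 7. The row on chromosome 1 has no introns and is listed by RefSeq as a pseudogene, and it took 28.8% to 30.8% of the counts of the pair in all 6 libraries.

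In complex IV, 11 of the 12 tested rows classed as ubiquitous nuclear subunits had a positive log2 fold change (median 0.37). These rows include Cox7a2l and the Cox6b1 row on chromosome 2, which RefSeq lists as a pseudogene. Without basal replicate 1 the median of the tested members of the complex was 0.04. Cox8a, one of the smallest subunits, had the highest level per length of all members, with 7540, 3471 and 2924 FPKM in basal libraries and 3395, 5142 and 3598 FPKM in apical libraries. Its log2 fold change was 0.31 (SE 0.51), and without basal replicate 1 it was -0.33. Cox7c had 1881, 767 and 814 CPM in basal libraries, against 647, 845 and 588 CPM in apical libraries (log2 fold change 0.74, SE 0.45). In both genes basal replicate 1 was the highest library and the remaining basal values overlapped the apical ones.

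Cox4i1, Cox5a and Cox5b are subunits that flank the mitochondrially encoded centre. Cox4i1 had 432, 257 and 277 CPM in basal libraries, against 239, 291 and 224 CPM in apical libraries (log2 fold change 0.36, SE 0.35). Cox5a had 1106, 568 and 648 CPM in basal libraries, against 721, 1030 and 629 CPM in apical libraries (log2 fold change -0.04, SE 0.40). Cox5b had 1318, 830 and 785 CPM in basal libraries, against 848, 1043 and 912 CPM in apical libraries (log2 fold change 0.07, SE 0.36). Outside basal replicate 1, none of these 3 genes had a basal value above the apical maximum.

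Separation without overlap was seen for Cox7a2l and Cox7b. Cox7a2l, a factor of the supercomplex of complexes III and IV, had 304, 208 and 216 CPM in basal libraries, against 154, 157 and 166 CPM in apical libraries (log2 fold change 0.61, SE 0.34). Cox7b, a small transmembrane subunit, had 313, 171 and 164 CPM in basal libraries, against 139, 144 and 133 CPM in apical libraries (log2 fold change 0.64, SE 0.39). Both kept a positive value without basal replicate 1. Cox6b1 also has rows on chromosomes 1 and 2. The one on chromosome 2 is listed by RefSeq as a pseudogene and took 40.6% to 45.0% of the counts of the pair in every library, so reads of the pair are uncertain in their origin.

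Complex IV is the complex with most tissue isoforms, and these were rare in the outer hair cell libraries. Cox6b2, known as a testis isoform, had 6.68, 13.7 and 6.04 CPM in basal libraries, against 0.65, 0.053 and 1.00 CPM in apical libraries. All basal values were higher at a low level, with a log2 fold change of 3.93 (SE 1.92). The edgeR quasi-likelihood test gave an adjusted p of 0.948 for Cox6b2 and DESeq2 gave 0.011. Cox6a1, the ubiquitous partner of Cox6a2, had 1742, 1244 and 1442 CPM in basal libraries, against 1093, 1668 and 1306 CPM in apical libraries (log2 fold change 0.12, SE 0.36). Cox6a2, the heart and skeletal muscle isoform, was not tested, with 139, 0 and 238 counts in basal libraries and 0 counts in all 3 apical libraries. Relative to library totals, its summed counts were at least 147-fold higher in the basal group when the apical group is set at a floor of 3 counts in all, although basal replicate 2 was also at 0. Of 12 striated muscle markers, 6 were at 0 in all libraries, and of the 4 tested ones 3 had a positive log2 fold change (median 3.31). Together the muscle markers took 0.0016% to 0.0046% of counts in basal libraries and 0.00025% to 0.0011% in apical libraries, and their part in the Cox6a2 counts was not tested.

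Cox4i2, the oxygen-sensitive isoform known from lung, was uneven between libraries. It had 1.65, 10.1 and 11.5 CPM in basal libraries, against 4.38, 15.7 and 134 CPM in apical libraries. The high value was apical replicate 3 alone, where Cox4i2 made up 29.3% of the summed FPKM of Cox4i1 and Cox4i2, beside 0.264% to 3.60% in the other 5 libraries. Its log2 fold change was -2.73 (SE 1.41), with an adjusted p of 0.992 by the edgeR quasi-likelihood test. Apical replicate 3 was also the library with the highest share of supporting cell markers, 1.45%, whose part in the Cox4i2 value was not tested.

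The remaining isoforms were at or near 0. Cox7a1, a muscle isoform, and Cox8c, a testis isoform, each had 2 counts in apical replicate 1 and 0 in the other 5 libraries. Cox7b2 and Cox8b were at 0 in all 6, as were Cox6c-ps1, Ndufb4l1 and a second row of Ndufa1. Ndufa4l2, a paralogue of Ndufa4 known for its rise in hypoxia, had 0, 190 and 48 counts in basal libraries and 6, 0 and 0 counts in apical libraries. Ndufv3-ps1 had 17, 3 and 2 counts in basal libraries and 6, 3 and 4 in apical libraries. The Ndufa13 row on chromosome 7, which has no introns, had 5, 3 and 2 counts in basal libraries and 7, 2 and 0 in apical libraries. Outside the name rule, a further row has a symbol that holds the gene number RefSeq gives to Ndufa13. That row had 5594, 4877 and 7944 counts in basal libraries and 6928, 9875 and 6155 counts in apical libraries (log2 fold change -0.09, SE 0.39).

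In complex V the signs also went by role, a comparison that was not tested. Of the 5 subunits of its catalytic head F1, 4 had negative log2 fold changes (median -0.35), and of the 10 subunits of the membrane part and the stalks, 9 had positive ones (median 0.22). Atp5b, the catalytic beta subunit, had 1954, 2536 and 3543 CPM in basal libraries, against 3511, 3706 and 3631 CPM in apical libraries (log2 fold change -0.43, SE 0.39). Atp5a1, the alpha subunit, had 306, 1003 and 1603 CPM in basal libraries, against 1182, 1081 and 1445 CPM in apical libraries (log2 fold change -0.35, SE 0.57). Both were lowest in basal replicate 1, and for Atp5a1 the value was 0.09 without that library.

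Atp5d, the delta subunit, had 569, 530 and 547 CPM in basal libraries, against 587, 886 and 660 CPM in apical libraries (log2 fold change -0.37, SE 0.33). The basal libraries were all lower, though basal replicate 1 and apical replicate 1 were close. Atp5c1, the gamma subunit that turns inside the head, had 1130, 662 and 840 CPM in basal libraries, against 997, 1190 and 1081 CPM in apical libraries (log2 fold change -0.31, SE 0.35). Atp5e, the smallest head subunit, was the exception with 0.25 (SE 0.41).

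In the membrane part, Atp5j2, the f subunit, had 953, 513 and 366 CPM in basal libraries, against 326, 400 and 322 CPM in apical libraries (log2 fold change 0.81, SE 0.43). Basal replicate 3 lay inside the apical range. Atp5l, the g subunit, had the highest level per length of complex V, with 3954, 2282 and 1610 FPKM in basal libraries and 2151, 2802 and 2410 FPKM in apical libraries (log2 fold change 0.19, SE 0.45; -0.33 without basal replicate 1). Atp5j, coupling factor 6, had 2096, 756 and 669 CPM in basal libraries, against 679, 816 and 654 CPM in apical libraries (log2 fold change 0.71, SE 0.50). These 3 genes had their highest value in basal replicate 1.

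Subunit c, which forms the rotating ring, is made from 3 genes that encode the same mature protein. Atp5g3 gave 42.4% to 47.1% of their summed FPKM in basal libraries and 39.0% to 48.7% in apical libraries. Atp5g1 gave 22.7% to 33.1% in basal libraries and 27.5% to 28.8% in apical libraries, and Atp5g2 gave 21.2% to 30.3% in basal libraries and 23.8% to 33.3% in apical libraries. Atp5g3 led in all 6 libraries and the ranges overlapped for each gene. The log2 fold changes of Atp5g1, Atp5g2 and Atp5g3 were 0.23 (SE 0.33), 0.01 (SE 0.37) and 0.32 (SE 0.34).

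A few rows of complex V were low. Atp5f1, the b subunit of the stator stalk, had 162, 0 and 7 counts in basal libraries and 21, 151 and 47 in apical libraries, the lowest level of any tested member. A row outside the rule named as a b-like subunit was low too, with 71, 22 and 5 counts in basal libraries and 13, 24 and 22 in apical libraries. Both rows list the same length, and whether reads were split between them or lost was not tested, so the level of this subunit is uncertain. Atp5s, a coupling factor B-like protein, had 43.4, 11.3 and 16.5 CPM in basal libraries, against 56.5, 50.0 and 41.8 CPM in apical libraries (log2 fold change -1.06, SE 0.76). Atp5sl had 4.23, 69.0 and 20.2 CPM in basal libraries, against 30.0, 9.99 and 15.1 CPM in apical libraries. Despite its symbol it is known as an assembly factor of complex I, and its order differed in each library.

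Taking the roles across complexes, the 19 core subunits (complex I core, complex II, the large subunits of complex III and the F1 head) had a median log2 fold change of -0.28, with 14 negative. The 55 tested rows of accessory and small subunits had a median of 0.31, with 48 positive. They include 3 rows without introns or listed as pseudogenes, all 3 positive. This grouping by role was made with the values known and has no test. The difference lay between libraries as much as between turns. Relative to each gene's mean over the 6 libraries, small subunits stood at a median log2 deviation of 0.69, -0.15 and -0.19 in basal libraries and -0.27, 0.09 and -0.17 in apical libraries. Core subunits stood at -0.20, -0.26 and 0.12 in basal libraries and 0.05, 0.27 and 0.16 in apical libraries. All tested genes stood at -0.18, -0.20 and 0.41 in basal libraries and 0.54, 0.12 and 0.40 in apical libraries. Over all tested genes, a set of lower median CPM, basal replicates 1 and 2 thus also stood below basal replicate 3. Genes outside the module with at least 100 mean CPM and above the median member length stood at -0.04, -0.11 and -0.02 in basal libraries. Their step between basal libraries was smaller than that of core subunits. Whether the order was particular to core subunits was not tested.

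Basal replicate 1 was the library that set the small subunits apart. It held the highest CPM of the 6 for 51 of the 78 tested members and the lowest for 13. Without it, the small subunits had a median of -0.007 and 25 of 56 were positive, while the core subunits had a median of -0.15 and 15 of 19 were negative. The median of all tested genes was -0.10 there, and that of long genes outside the module with at least 100 mean CPM was -0.18. Basal replicate 1 alone against apical libraries gave medians of 0.81 for small subunits, -0.32 for core subunits and -1.21 for all genes tested. This library also had the highest share of outer hair cell markers and the lowest share of Schwann cell markers of the basal group, and its macrophage marker share was above that of every apical library. The part of these in the result was not tested.

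**Figure D4:**
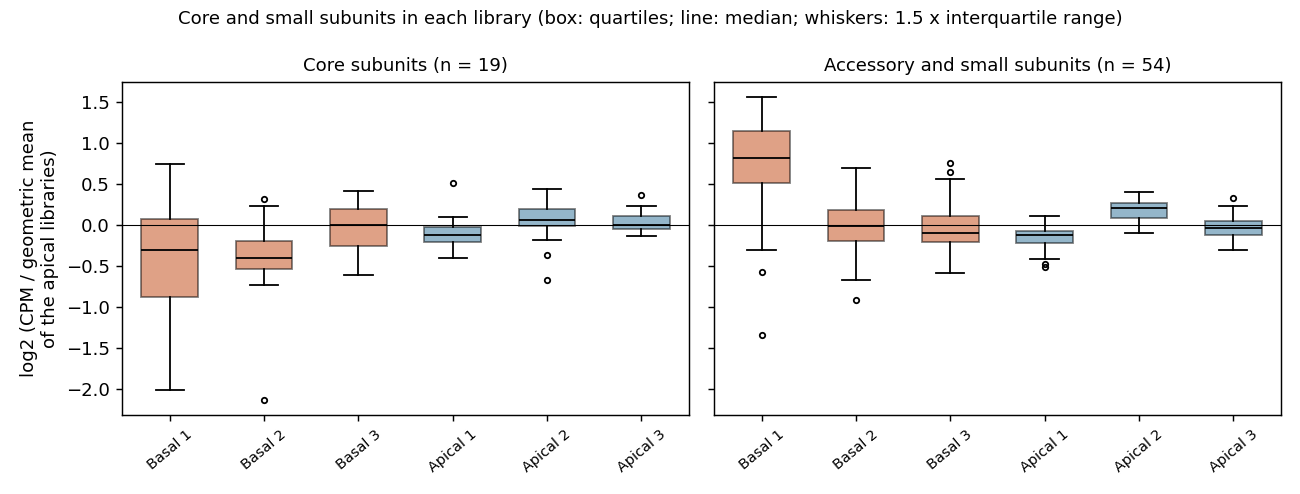
Log2 ratio of each member's CPM in a library to its geometric mean over the 3 apical libraries. The left part has 19 core subunits and the right part 54 rows of accessory and small subunits (Atp5f1 left out for its 0 count). Boxes are quartiles with the median as a line, and whiskers reach 1.5 times the interquartile range. In basal replicate 1 the small subunits lie mostly above 0 while the core subunits lie mostly below it, and in basal replicates 2 and 3 the small subunits centre near 0.

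Core subunits have longer transcripts than small ones, and length moved with the fold change. The median listed length was 1607 bases for core and 577 bases for small subunits. Below the median member length of 718.5 bases, 36 of 39 members had a positive log2 fold change (median 0.35), and above it 19 of 39 did (median -0.04). Genes in general showed a like step. Among all tested genes in the same length ranges, 62.3% of 903 short genes had a positive value (median 0.28), against 47.0% of 11512 long genes (median -0.08). Among tested genes outside the module with at least 100 mean CPM, 76.5% of 183 short genes had a positive value, against 42.2% of 1727 long genes. Spearman's rho of listed length with log2 fold change was -0.60 across the 78 members, -0.18 across the 1910 tested genes outside the module with at least 100 mean CPM, and -0.01 across all tested genes, given as a description of points that share the same 6 libraries. Without basal replicate 1 the rho across members was -0.27, and 18 of 39 short and 12 of 39 long members had a positive value. The rho across the 1910 genes outside the module was then -0.14. Of these genes, 114 of 183 short ones (median 0.23) and 699 of 1727 long ones (median -0.18) had a positive value. Role and length were not separated, and their parts were not tested.

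**Figure D5:**
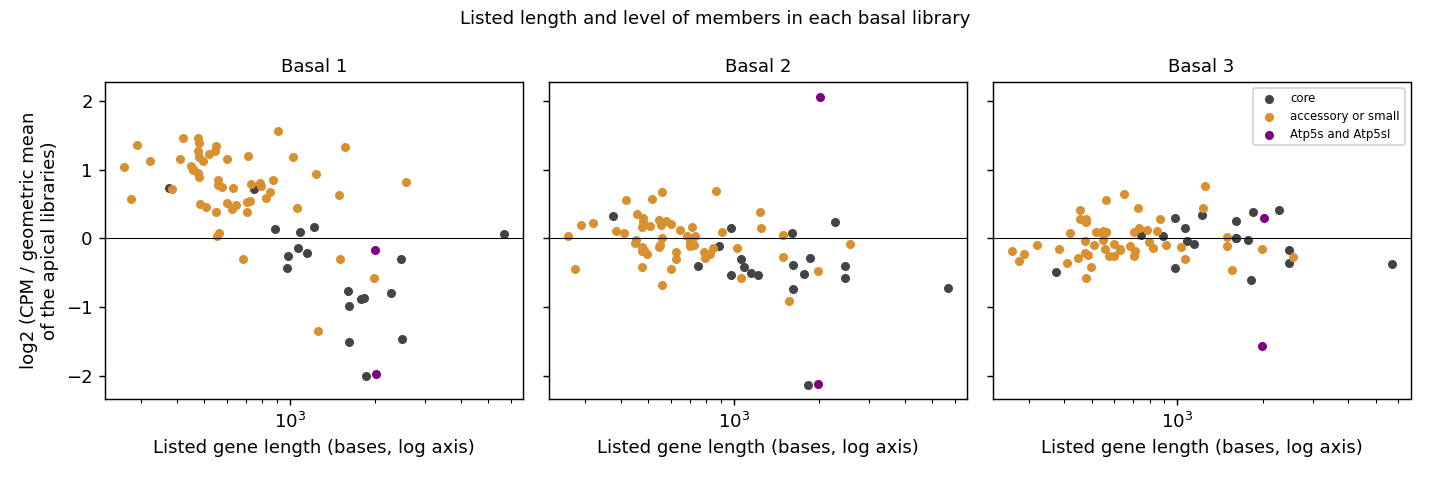
Log2 ratio of member CPM in each basal library to the geometric mean of the apical libraries, against listed gene length (bases, log axis); Atp5f1, Cox4i2 and Cox6b2 are left out for their low or uneven counts. In basal replicate 1 most members under 1000 bases lie above 0 and most core subunits beyond 1000 bases below it, while basal replicates 2 and 3 lie closer to 0.

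Members varied less between libraries than tested genes of all levels did. Their median coefficient of variation of CPM was 38.5% among basal and 14.4% among apical libraries, beside 87.0% among basal and 50.4% among apical libraries for all tested genes. Members also had a higher median CPM, 349 against 20.4 for all tested genes. Genes of a like level were not compared, so low variation is not shown to be a trait of the module. Within the module, Sdhb (3.84%) varied little and Ndufv3 (86.6%) much among the basal libraries, each over 3 libraries.

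Assembly factors, which build the complexes but do not stay in them, were read from the same fit, and 0 passed in either direction. For complex I, 2 of 14 had a positive log2 fold change (median -0.45), for complex II 1 of 3 (median -0.04), for complex III 5 of 6 (median 0.09), for complex IV 11 of 19 (median 0.008) and for complex V 1 of 4 (median -0.64). Ecsit, a complex I assembly factor, had 33.3, 53.3 and 49.5 CPM in basal libraries, against 71.6, 74.1 and 98.9 CPM in apical libraries (log2 fold change -0.84, SE 0.49). The basal values were all lower. Uqcc3, a complex III assembly factor, had 143, 158 and 132 CPM in basal libraries, against 80.9, 96.7 and 111 CPM in apical libraries (log2 fold change 0.58, SE 0.37), with all basal values higher.

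Subunits and carriers with other symbols were also read out, and 0 of 7 passed, with 2 positive. Slc25a4, the adenine nucleotide carrier that exports ATP from the matrix, had 1535, 1641 and 1612 CPM in basal libraries, against 2430, 2627 and 2934 CPM in apical libraries. Both groups were tight and apart, with a log2 fold change of -0.74 (SE 0.34) and an adjusted p of 0.900 by the edgeR quasi-likelihood test. Cycs, cytochrome c, had 2545, 637 and 1223 CPM in basal libraries, against 1216, 1113 and 741 CPM in apical libraries (log2 fold change 0.52, SE 0.54). The 13 mitochondrially encoded subunits, the partners of these proteins, all had positive log2 fold changes (median 0.87), with 0 called, and took 13.5%, 8.74% and 7.20% of counts in basal libraries, against 5.90%, 7.60% and 4.19% in apical libraries.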

How the data were processed

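RNA of 30 outer hair cells per library was sequenced in 3 basal-turn and 3 apical-turn libraries of rats at postnatal day 9. Per the labels' protocols, turns were digested with 1 mg/ml collagenase for 10 min and the NEBNext Ultra kit was used for library construction. The submitters' processing notes list TopHat2 2.0.12 and Bowtie2 2.2.3. No source used here names the amplification, counting tool, genome build, annotation or differential test. The deposited table holds whole-number counts per gene and the authors' FPKM, per the file headers. FPKM equalled count over listed length and library total for 69.4% to 70.3% of genes over 20 counts (relative tolerance 1e-06). The authors' deposited log2 fold changes, p-values and normalized mean signal were used only where named as theirs. Coordinates of the rows are on the deposited table's unnamed build and are not printed.

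Counts were fitted with edgeR 4.0.16 in R 4.3.3 (filterByExpr, TMM, glmQLFit, glmQLFTest, no covariate, Benjamini-Hochberg over 13507 genes). Standard errors are the absolute log2 fold change over the square root of F. DESeq2 1.42.0, limma 3.58.1 (voom, and a trend on log2(FPKM + 1) with FPKM of at least 1 in 3 libraries), other scalings and filters, the replicate number as a block, and leaving out libraries were alternatives. Intervals and floors (3 counts, 0.130 to 0.182 CPM) cover counting error only. Tables and plots used pandas 2.3.3, numpy 2.4.6 and matplotlib 3.10.9.

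Members and lists were chosen with earlier results of these data known, and the core and small grouping with the values of these genes known. Named with values were a fixed list of core subunits and isoforms, the smallest p in each direction and the highest and lowest FPKM of each complex, members not tested, and members whose groups did not overlap. A named core subunit and its point in the plot of fold changes are not reported here. Atp5j, Atp5sl, Cox7c, Ndufv3, other core subunits and genes outside the members were named after their values were seen. RefSeq (GRCr8) gave 86 of 89 rows an entry, 67 by symbol and 19 by older symbol, and 71 a promoter. The kit as named does not record strand, so antisense overlaps cannot be told apart.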

Additional observations from a re-analysis of the deposited data

How the results depend on the processing

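No member passed the edgeR test under any other scaling, filter, block or left-out library; DESeq2 called 1. Genes called numbered 0 in the edgeR fit, 8 with no count filter, 663 with DESeq2, 28 with the bias-adjusted quasi-likelihood test, and 0 to 2 with a library left out. Members with an unadjusted p under 0.05 numbered 1 in that fit, 0 with RLE or upper quartile factors, 2 with DESeq2, limma-voom, log2(FPKM + 1) (with or without its filter) and log2(FPKM + 0.1), 3 with the bias-adjusted test, and 0 to 4 with a library left out. Members with a positive value ranged from 31 (without basal replicate 1) to 63. With a library left out, medians ranged from -0.03 to 0.34 over all members, -0.02 to 0.35 in complex I, -0.35 to -0.05 in complex II, -0.09 to 0.34 in complex III, 0.04 to 0.60 in complex IV, -0.15 to 0.26 in complex V, -0.32 to -0.15 for core and -0.007 to 0.50 for small subunits. Basal replicate 1 alone against the apical libraries, with the lone library assumed to vary like the others, gave 289 genes, 27 members with p under 0.05, and medians of 0.69 over all members, 0.71 in complex I, 1.05 in complex IV and 0.81 for small subunits; the median of all genes moved by -1.19 there. It moved by -0.46 with limma-voom, -0.14 to -0.40 on FPKM, -0.36 with the replicate block and -0.18 without basal replicate 3. Rows without introns or listed as pseudogenes changed little (median 0.19 without them). Of 41 tested named members, 24 kept their sign under every alternative and 17 did not. The replicate numbers did not pair the libraries (correlations of -0.04, 0.007 and 0.14); with the replicate block 0 genes were called, 52 members were positive and the median was 0.14. The causes were not tested. Pools of 30 cells and 3 libraries a turn limit the precision, and counts of the Cox6b1 and Uqcrb copies cannot be assigned with certainty.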

Other observations

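Regulators of mitochondrial genes and enzymes of the citric acid cycle were read from the same fit, and 0 of the 14 regulators and 0 of the 12 enzymes passed the edgeR quasi-likelihood test. Polrmt, the RNA polymerase of mitochondria, had 19.5, 37.8 and 18.7 CPM in basal libraries, against 78.7, 59.9 and 121 CPM in apical libraries, with all basal values lower. Its log2 fold change was -1.77 (SE 0.59), with an adjusted p of 0.495 by the edgeR quasi-likelihood test, as 1 of 524 genes tested that were lower at an unadjusted p under 0.05. That order is opposite to the mitochondrially encoded subunits, whose 13 log2 fold changes were positive. Ppargc1a, the coactivator PGC-1 alpha, was detected unevenly, with 0, 2.69 and 46.9 CPM in basal libraries and 0, 0 and 1.67 CPM in apical libraries. Nrf1, whose motif was counted in the promoters, had 33.0, 7.48 and 17.9 CPM in basal libraries, against 18.9, 32.3 and 10.0 CPM in apical libraries (log2 fold change -0.07, SE 1.04).

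Of the citric acid cycle enzymes, 4 of 12 had a positive log2 fold change (median -0.26). Cs, citrate synthase, had 29.1, 125 and 143 CPM in basal libraries, against 174, 126 and 104 CPM in apical libraries. Its lowest library was basal replicate 1, as for Atp5a1 and Ndufs1.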
